A study of Homo sapiens with 18 samples.

Results

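The effect of surface topography on gene expression was compared between 2 inflammatory exposures of a human podocyte line. For each gene the quantity tested was the log2 fold change of fractal over smooth topography in the presence of THP-1 macrophages minus the same fold change in the presence of cytokines. The 12 libraries of the 4 groups involved were used, of 18 in the series, and the test ran over every gene expressed in them. A positive difference means that the fractal surface raised the gene more, or lowered it less, under THP-1 than under cytokines. The comparison asks where topography acts differently under the 2 exposures.

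All libraries came from PODO/TERT256, 1 human podocyte line immortalised with telomerase, grown on 3D hemispheres. The groups were smooth surface with cytokines (TNF-α and IL-6), fractal surface with cytokines, smooth surface with THP-1-derived macrophages (THP-1 is a line from a human monocytic leukaemia), and fractal surface with the same macrophages. Each group had 3 libraries, and no label says whether those came from separate cultures. The p-values therefore reflect only how much these libraries varied, which may be technical. Doses, duration and cell ratios are not stated in the labels. Fractal and smooth controls without either exposure were sequenced too, and their levels are given for reference only. The 2 topography effects share no library. Each gene's spread was estimated from all 12 libraries in 1 fit, however, so their p-values are not independent.

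Podocytes wrap the capillaries of the kidney glomerulus, and their foot processes are held in shape by an actin skeleton anchored through integrins to the basement membrane. TNF-α acts through receptors that release the transcription factor NF-kB from its inhibitor, which switches on chemokines, adhesion molecules and the feedback inhibitors of the pathway itself. IL-6 acts mainly through STAT3, which drives acute phase genes. Macrophages deliver a broader mixture of secreted signals and cell contacts.

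Library totals ran from 11488204 to 19177212 counts. The libraries that stood apart were fractal THP-1 replicate 3 and smooth cytokines replicate 2. The first detected 17934 genes and took 0.847% of its counts from the mitochondrial genome, and the second took 8.09%. The other 10 libraries had 4.15% to 4.63%. A chi-square on the counts, divided by its degrees of freedom, reached 62.1 between fractal THP-1 replicates 1 and 3 and 34.8 between smooth cytokines replicates 2 and 3. It was 3.38 between fractal THP-1 replicates 1 and 2. Of the podocyte markers, NPHS1 (nephrin) had 3 counts over the 12 libraries, and WT1 averaged at most 0.457 CPM (counts per 1000000 counts) in a group. Other markers were detected: CD2AP, an adaptor of the slit diaphragm, averaged 133 to 177 CPM over the 4 groups, SYNPO 63.7 to 111 CPM, PLA2R1 33 to 63.1 CPM and PODXL 2.58 to 7.08 CPM.

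Markers of monocytes and macrophages appeared in the THP-1 libraries. Of 46 such genes, 42 averaged below 1 CPM in both control groups. Their summed level was 73.9 to 83.2 CPM on the smooth and 25.0 to 38.5 CPM on the fractal surface under THP-1, so the groups did not overlap. Under cytokines the sums were 12.1 to 16.0 CPM on the smooth and 12.7 to 15.1 CPM on the fractal surface. Most of this was 1 gene, FPR1, which averaged 10.2 CPM on the smooth and 10.8 CPM on the fractal surface under cytokines. Its control means were 0.73 and 0.88 CPM. Over all 46 genes the sums were 362 to 429 CPM on the smooth and 296 to 579 CPM on the fractal surface under THP-1, and 331 to 363 and 222 to 264 CPM under cytokines. That total was mostly CYBA, an NADPH oxidase subunit with a mean of 321 CPM on the smooth topography under cytokines as well. ITGB2, the integrin chain of leukocytes, averaged 23.3 CPM on the smooth and 8.72 CPM on the fractal surface under THP-1, and LAPTM5 averaged 14.6 and 4.82 CPM. PTPRC (CD45) averaged 1.46 and 0.656 CPM and SPI1, the transcription factor PU.1, 1.32 and 0.433 CPM. CD68 had 2 counts and 1 count. Not every marker was lower on the fractal surface under THP-1. CD14 averaged 5.85 CPM on the smooth and 6.89 CPM on the fractal surface, and CYBA 301 and 356 CPM. CD14 is not among the 42, since it averaged 1.19 CPM in the fractal control. No marker of 20 tested passed for the difference between the exposures with edgeR, 8 had an unadjusted p under 0.05, and DESeq2 called 5 and limma-voom none. With edgeR, 5 of the 20 were lower and 0 higher on the fractal surface under THP-1. In bulk RNA, fewer macrophages and less RNA per macrophage cannot be told apart. The number of marker genes without a count was 28 and 27 in the smooth and fractal cytokine groups and 5 and 10 in the smooth and fractal THP-1 groups. The part of these levels in the results below was not tested.

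Topography acted differently under the 2 exposures in 1172 of 15788 genes (7.42%) by edgeR's quasi-likelihood test (Benjamini-Hochberg adjusted p under 0.05). The difference was higher in 562 (3.56%) and lower in 610 (3.86%). Among the 1172 genes, 1133 code for protein and 608 differed by at least 1 on the log2 scale. In 1120 of them the 9 fractal minus smooth differences between libraries under THP-1 did not overlap the 9 under cytokines, which held for 2089 of all 15788 genes. Without fractal THP-1 replicate 3 the count was 2044, and without both libraries that stood apart it was 2451, of which 1148 were among the 1172.

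Across all genes tested, the 2 topography effects were almost uncorrelated. Under THP-1, 923 genes (5.85%) were higher and 1270 (8.04%) lower on the fractal surface. Under cytokines, 153 (0.969%) were higher and 326 (2.06%) lower. Leaving out smooth THP-1 replicates 1, 2 or 3 brought the THP-1 total of 2193 to between 1337 and 1398. Leaving out fractal cytokines replicates 1, 2 or 3 brought the cytokine total of 479 to between 275 and 315, and it was 980 without fractal THP-1 replicate 3. Across genes, which are not independent replicates, the 2 effects had a Pearson correlation of 0.0404 and a Spearman correlation of 0.0609. Most genes passed in neither exposure, and noise in them draws a correlation toward 0. These values therefore do not show how alike the effects were in genes that changed. The median size of an effect, regardless of sign, was 0.262 under THP-1 and 0.152 under cytokines on the log2 scale.

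Of 190 genes that passed in both exposures, 108 moved in opposite directions, and each of these also passed for the difference. Opposite effects add up in that difference, so its passing there is no separate result. In 85 of the 108 genes fractal topography raised the gene under THP-1 and lowered it under cytokines, and in 23 the reverse held. The remaining 82 moved the same way, 51 lower and 31 higher. Among the 562 genes with a higher difference, 287 were higher on fractal under THP-1 with no call under cytokines, and 115 were lower under cytokines with no call under THP-1. Among the 610 with a lower difference, 503 were lower on fractal under THP-1 with no call under cytokines. A further 45 were higher under cytokines with no call under THP-1.

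**Figure D1:**
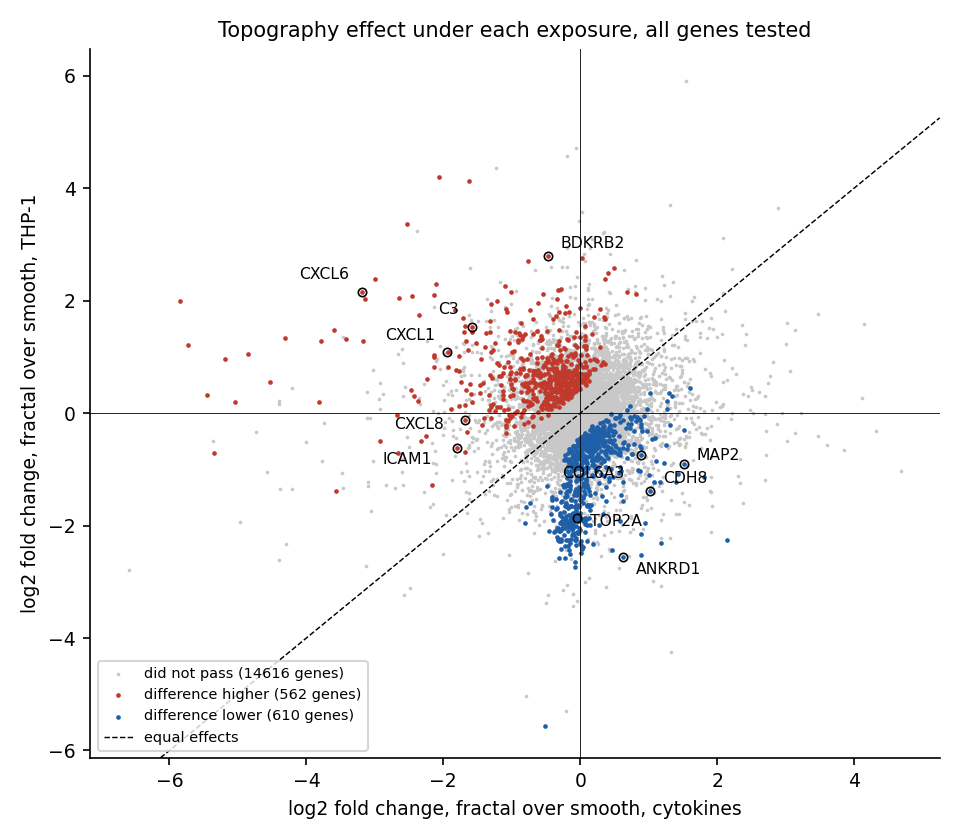
Each point is 1 of the 15788 genes tested, placed by the log2 fold change of fractal over smooth topography under cytokines (horizontal) and under THP-1 (vertical). The 562 genes with a higher difference (red) lie above the dashed line of equal effects and the 610 with a lower difference (blue) below it, many of them near 0 on the cytokine axis.

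The counts for gene lists are to be read beside the shares over all genes tested. These were 3.56% higher and 3.86% lower for the difference, 5.85% and 8.04% under THP-1, and 0.969% and 2.06% under cytokines. The chemokines that attract neutrophils had the largest median difference among the gene lists. All 6 tested of 8 such CXC chemokine genes had a higher difference, with a median of 2.80 on the log2 scale, against -0.01 over all genes. They were lower on the fractal surface in 6 of 6 cases under cytokines (median -1.81) and higher in 4 of 6 under THP-1 (median 0.84). The genes sit together on chromosome 4 and several are close paralogs, so reads may be split between them. The 120 bases upstream of the start of 4 of them are shown because each holds a match to the NF-kB site GGANTTTCC, given in capitals. Sequences are from RefSeq (GRCh38.p14), written 5′ to 3′ in the direction of the gene. They lie at chr4:73836558-73836677 (plus strand, CXCL6), chr4:73869273-73869392 (plus strand, CXCL1), chr4:73998678-73998797 (minus strand, CXCL5) and chr4:73740449-73740568 (plus strand, CXCL8).
CXCL6: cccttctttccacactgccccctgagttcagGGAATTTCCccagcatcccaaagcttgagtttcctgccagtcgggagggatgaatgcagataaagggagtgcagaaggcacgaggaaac
CXCL1: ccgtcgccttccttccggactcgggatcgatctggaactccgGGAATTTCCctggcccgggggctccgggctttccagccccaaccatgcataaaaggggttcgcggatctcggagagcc
CXCL5: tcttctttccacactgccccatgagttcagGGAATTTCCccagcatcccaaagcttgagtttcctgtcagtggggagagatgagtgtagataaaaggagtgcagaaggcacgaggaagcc
CXCL8: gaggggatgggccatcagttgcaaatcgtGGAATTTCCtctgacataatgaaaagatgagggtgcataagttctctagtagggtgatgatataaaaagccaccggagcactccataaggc
Within 250 bases upstream, read on both strands, this motif was found in 6 of 6 tested chemokine genes of the list. It was present in 15 of 38 NF-kB and TNF target genes (39.5%), a list that includes those 6. The motif was in 18 of 424 genes with a higher difference (4.25%), 7 of 488 with a lower one (1.43%) and 163 of 11258 tested genes with a promoter in the table (1.45%). Over all 27305 RefSeq promoters the share was 1.47%. A match is a stretch of letters and was not tested for binding.

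CXCL6 (ENSG00000124875, chromosome 4, 73836497 to 73849064, GRCh38, GENCODE 29) showed the largest difference of the family. Under cytokines it was at 1055, 856 and 1259.9 CPM on the smooth and 98.9, 108 and 140.1 CPM on the fractal surface. Under THP-1 it was at 119.7, 120.1 and 114 CPM on the smooth and 486, 494 and 598 CPM on the fractal surface. The smooth surface thus carried the high values under cytokines and the fractal surface under THP-1, without overlap. The topography effects were -3.19 ± 0.15 and 2.16 ± 0.15, a difference of 5.35 ± 0.21 (log2 ± SE, edgeR adjusted p = 2.41e-11). Control means were 58.2 CPM on the smooth and 42.3 CPM on the fractal surface. CXCL1, which acts on the same neutrophil receptor, followed the same pattern. It was at 1626, 1487 and 1845 CPM on the smooth and 387, 431 and 475 CPM on the fractal surface under cytokines. With THP-1 the values were 256, 255 and 274 on the smooth and 572, 591 and 497 CPM on the fractal surface. Its difference was 3.02 ± 0.15, and in both exposures smooth and fractal values were apart.

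CXCL5 had 252, 241 and 332 CPM on the smooth and 54.5, 55.97 and 63.7 CPM on the fractal surface under cytokines, and 27.04, 29.6 and 28.6 and 37.2, 37.9 and 54.96 CPM under THP-1, a difference of 2.85 ± 0.21. In CXCL8, the gene of interleukin 8, only the cytokine effect passed. It was at 2064, 2220.4 and 2168 CPM on the smooth and 646, 604 and 756 CPM on the fractal surface under cytokines (-1.69 ± 0.10). The THP-1 values were 1359, 1388 and 1415 and 1360.1, 1251 and 1199 CPM (-0.13 ± 0.10), overlapping between the surfaces, and the difference was 1.56 ± 0.14. CXCL2 and CXCL3, named to complete the family after their values were seen, had differences of 2.76 ± 0.24 and 1.42 ± 0.27. CXCL2 was low under THP-1, at 5.22 ± 1.54 CPM on the smooth and 14.4 ± 1.48 CPM on the fractal surface (SD, n = 3).

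The wider set of NF-kB and TNF target genes, which includes the 6 tested chemokines, leaned the same way. Of 48 tested, 26 had a higher difference, the 6 chemokines among them, and 1 a lower one, with a median of 0.92. Under cytokines 33 were lower and none higher on the fractal surface (median -1.05). Under THP-1 the list was split, with 11 higher, 9 lower and a median of -0.15. The count of 26 was 29 without the libraries that stood apart.

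Members of the list followed several patterns. SOD2, mitochondrial superoxide dismutase, reversed. It went from 1003, 796 and 981 CPM on the smooth to 319, 348 and 390.2 CPM on the fractal surface under cytokines, and from 398, 416 and 367 to 787, 821 and 1077 CPM under THP-1. The difference was 2.58 ± 0.18. IL6 (ENSG00000136244, chromosome 7, 22725884 to 22732002) stood at 154, 155 and 182 CPM on the smooth and 54.2, 58.8 and 64.6 CPM on the fractal surface under cytokines. Under THP-1 it stood at 117, 121 and 123 and 167, 158 and 135 CPM, a small rise without overlap (0.35 ± 0.10, edgeR adjusted p = 0.0279), and the difference was 1.82 ± 0.15. TNFAIP3 (A20), a deubiquitinase that feeds back on NF-kB, was at 552, 490.4 and 607 and 199, 211 and 210.1 CPM under cytokines and at 199.6, 198 and 195 and 173, 183 and 203 CPM under THP-1. The THP-1 values overlapped, and the difference was 1.33 ± 0.14. NFKBIA, the NF-kB inhibitor IkB-alpha, had effects of -1.08 ± 0.10 under cytokines and -0.22 ± 0.10 under THP-1, with a difference of 0.86 ± 0.14.

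Among leukocyte adhesion molecules, ICAM1 (ENSG00000090339, chromosome 19, 10270835 to 10286615), the ligand of leukocyte integrins, was lower on the fractal surface in both exposures. It went from 87.6, 81.3 and 74.5 to 24.9, 21.8 and 23.6 CPM under cytokines and from 99.7, 91.6 and 89.5 to 59.4, 64.02 and 59.9 CPM under THP-1. The effects of -1.79 ± 0.10 and -0.61 ± 0.10 left a difference of 1.18 ± 0.14. VCAM1 was at 671, 628 and 514 CPM on the smooth and 391, 332 and 405 CPM on the fractal surface under cytokines (-0.68 ± 0.11). With THP-1 the values were 435, 391 and 414 and 482, 460.5 and 558 CPM (0.27 ± 0.11, edgeR adjusted p = 0.12), and the difference was 0.96 ± 0.16.

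CCL2, the monocyte chemokine, was at 96.1, 88.5 and 155 CPM on the smooth and 14.5, 15.7 and 23.2 CPM on the fractal surface under cytokines. Under THP-1 it was at 132, 129 and 136 and 102, 98.6 and 42.02 CPM, with replicate 3 of the fractal group far below the other two. Its difference of 1.96 ± 0.48 passed narrowly (edgeR adjusted p = 0.0356). The call was lost in 11 of 23 alternatives (adjusted p = 0.0592 to 0.103). These were limma-voom and, in edgeR, no filter, the replicate number as a block, and leaving out smooth cytokines replicate 1, fractal cytokines replicates 1 or 2, any of smooth THP-1 replicates 1 to 3, or fractal THP-1 replicates 1 or 2.

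TRAF1, an adaptor of TNF receptors, was the single list member with a lower difference. Under THP-1 it went from 78.5, 80.98 and 79.99 CPM on the smooth to 23.7, 23.98 and 27.6 CPM on the fractal surface, and under cytokines from 10.5, 13.6 and 12.7 to 6.48, 8.20 and 6.52 CPM. It fell on the fractal surface in both exposures, by more under THP-1 (difference -0.88 ± 0.19). Its smooth THP-1 values were high beside controls of 10.3 CPM, in the group that also had the higher macrophage marker sum.

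**Figure D2:**
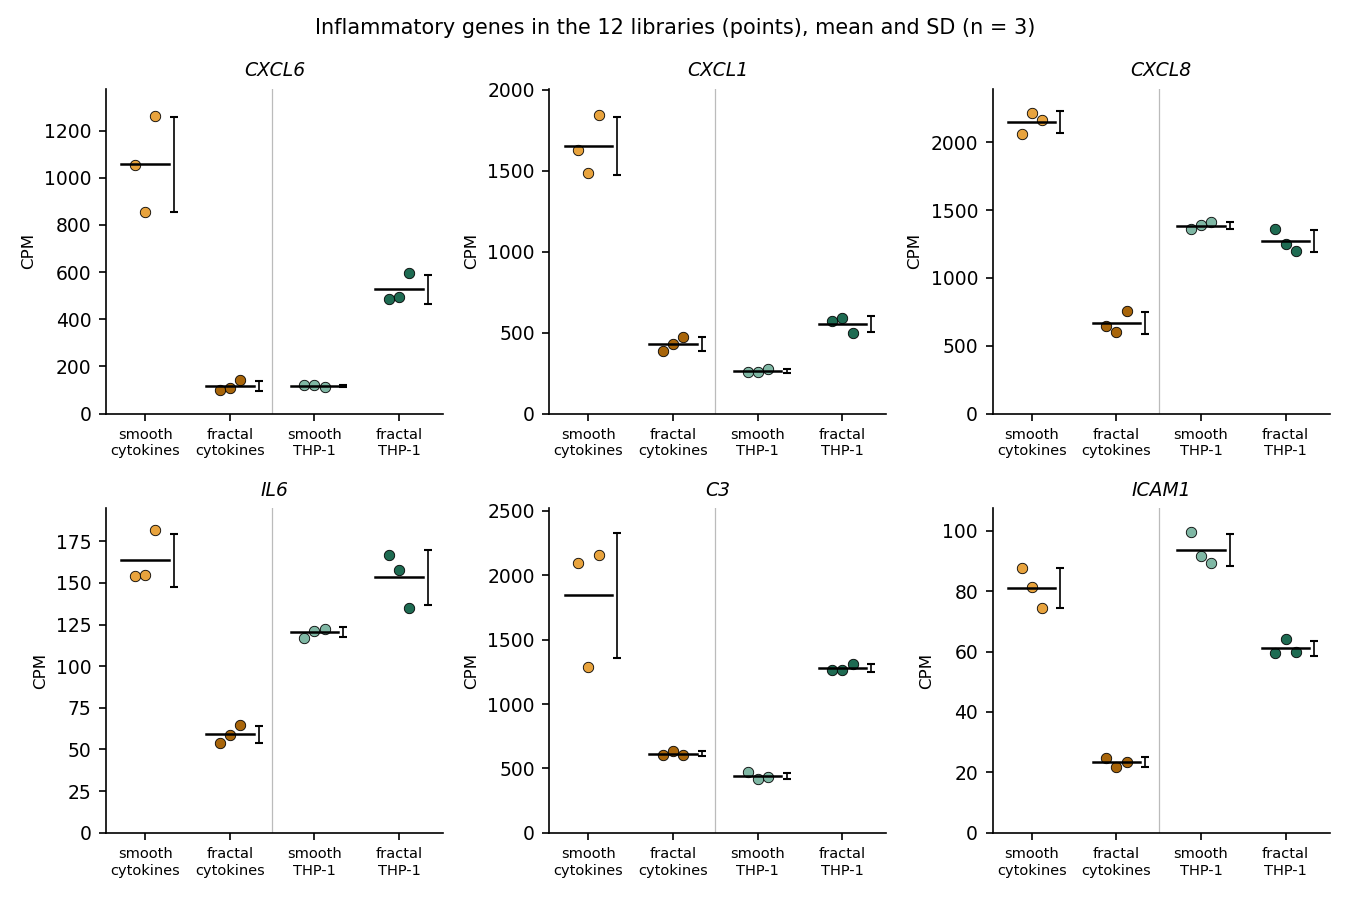
CPM (vertical, from 0) of 6 inflammatory genes in the 12 libraries, with bars for the mean and error bars for the SD of 3 libraries. For CXCL6, CXCL1, IL6 and C3 the smooth surface was high under cytokines and the fractal surface under THP-1, while CXCL8 overlapped and ICAM1 was lower on the fractal surface under THP-1.

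Complement genes had higher differences alone: 5 of 16 tested, with none lower (median 0.17). C3, the central complement protein, was at 2092, 1285 and 2156 CPM on the smooth and 605, 635 and 603 CPM on the fractal surface under cytokines. It was at 469, 421 and 437 and 1265, 1263 and 1311 CPM under THP-1. The smooth cytokine replicate with the lowest value was the one with 8.09% mitochondrial counts, and even that value was over the fractal ones. The difference was 3.12 ± 0.20 (edgeR adjusted p = 2.33e-08). C1R, a protease of the classical pathway, was at 177, 156 and 142 CPM on the smooth and 149.9, 191 and 133 CPM on the fractal surface under cytokines, which overlapped. Under THP-1 it rose from 60.98, 59.2 and 63.4 to 151, 147 and 171 CPM (difference 1.36 ± 0.17). CFB, of the alternative pathway, had effects of -1.47 ± 0.22 under cytokines and 0.50 ± 0.22 under THP-1, the latter short of the threshold. C1S and C1RL were the other 2 genes called.

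The acute phase genes of serum amyloid A also reversed. SAA1 was at 44.8, 35.5 and 48.5 CPM on the smooth and 8.46, 11.5 and 10.002 CPM on the fractal surface under cytokines, and at 5.91, 6.08 and 5.95 and 21.4, 24.7 and 42.8 CPM under THP-1. Each surface pair was apart, and the difference was 4.40 ± 0.31. SAA2, a near-identical paralog whose reads cannot be separated with certainty, had a difference of 4.23 ± 0.36. Of 17 tested IL-6 and STAT3 response genes 4 had a higher and none a lower difference (median 0.13). The others were PIM1 and CEBPD, a transcription factor of the acute phase. CEBPD rose under THP-1 from 20.5, 21.2 and 17.9 to 45.5, 45.6 and 55.6 CPM and was at 41.2, 45.3 and 35.8 and 39.9, 51.9 and 36.7 CPM under cytokines, which overlapped (difference 1.23 ± 0.20).

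Interferon genes went both ways. Of 38 tested, 3 (7.89%) had a higher and 2 (5.26%) a lower difference (median -0.22), beside 3.56% and 3.86% over all genes. On the fractal surface under THP-1, 10 were lower and 2 higher. GBP2, an interferon-induced GTPase, was at 26.2, 21.9 and 22.9 CPM on the smooth and 11.6, 12.9 and 14.2 CPM on the fractal surface under cytokines and at 15.1, 15.5 and 14.9 and 39.9, 43.9 and 35.3 CPM under THP-1. It reversed without overlap (difference 2.26 ± 0.19). IFIH1 (MDA5), a sensor of viral RNA, was lower on the fractal surface under cytokines (-1.12 ± 0.20) with a THP-1 effect of 0.05 ± 0.19. The membrane proteins IFITM2 and IFITM3 gave the lower differences, -1.54 ± 0.34 and -1.11 ± 0.24. Both were higher on the fractal surface under cytokines, and under THP-1 their lowest values were in fractal replicate 3, the library that stood apart. The count of 2 lower genes was 4 without fractal THP-1 replicate 1, and the count of 3 higher genes was 5 without the libraries that stood apart.

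MHC class I presentation genes were lower on the fractal surface under cytokines in 8 of 21 cases, with none higher. Under THP-1, 3 were lower and none higher. The difference was higher in 4 and lower in none (median 0.32), but in only 1 or 2 when smooth cytokines replicate 1, any of fractal cytokines replicates 1 to 3 or any of smooth THP-1 replicates 1 to 3 was left out. TAPBP (tapasin), which loads peptides, was at 215, 233 and 241 CPM on the smooth and 133, 129 and 128 CPM on the fractal surface under cytokines. It was at 230.1, 218 and 214 and 195, 210.3 and 173 CPM under THP-1, a difference of 0.63 ± 0.13.

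In the prostaglandin list 3 of 15 genes had a higher difference and none a lower one (median -0.02). PTGES, a prostaglandin E synthase, fell on the fractal surface under cytokines from 27.8, 25.8 and 34.2 to 9.52, 13.3 and 12.7 CPM. It rose under THP-1 from 0.995, 1.03 and 1.34 to 5.61, 4.03 and 3.21 CPM, at a much lower level (difference 3.25 ± 0.33). PTGS2 (cyclooxygenase 2) rose under THP-1 from 35.1, 40.4 and 38.3 to 65.3, 68.8 and 51.3 CPM and had 420.3, 423 and 288 and 334, 342 and 358 CPM under cytokines (difference 0.83 ± 0.19). The prostaglandin F receptor gene PTGFR had a difference of 1.40 ± 0.26.

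Genes of clotting control split. Of 15 tested, 2 had a higher and 3 a lower difference (median 0.06). THBD (thrombomodulin), which turns thrombin into an anticoagulant, reversed, from 22.1, 16.1 and 19.7 to 8.53, 11.02 and 8.67 CPM under cytokines and from 12.8, 13.4 and 9.90 to 30.1, 23.8 and 31.7 CPM under THP-1 (difference 2.28 ± 0.24). TFPI, the inhibitor of the tissue factor pathway, had a difference of 1.28 ± 0.20. SERPINE2, an inhibitor of serine proteases, had a difference of -0.71 ± 0.15. FGB, the fibrinogen beta chain, could not be compared with precision: it was at 39.7, 68.4 and 18.5 CPM on the smooth and 203, 163 and 169 CPM on the fractal surface under cytokines but at 0.351, 0.0574 and 0.121 and 0.596, 0.541 and 1.44 CPM under THP-1. Its difference of 0.06 ± 0.88 has an SE that leaves its direction unresolved.

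Glucocorticoid receptor targets had 4 higher and 2 lower differences among 19 (median 0.05), with 8 higher and 1 lower on the fractal surface under THP-1. PDK4, which inhibits pyruvate dehydrogenase, rose under THP-1 from 5.91, 5.68 and 6.07 to 25.5, 23.1 and 23.3 CPM. Under cytokines it was at 77.6, 63.1 and 31.9 and 45.96, 51.6 and 38.2 CPM, overlapping (difference 2.37 ± 0.34). CDKN1C, the cell cycle inhibitor p57, rose under THP-1 from 24.9, 24.3 and 26.6 to 72.8, 70.9 and 116 CPM and overlapped under cytokines at 28.1, 29.9 and 39.2 and 24.9, 30.003 and 28.7 CPM (difference 1.99 ± 0.24). KLF9 had a difference of 0.85 ± 0.14. SGK1, a kinase that regulates sodium transport, fell under THP-1 from 9.36, 8.09 and 7.29 to 4.35, 5.11 and 6.17 CPM (difference -1.15 ± 0.26). The list thus did not move as 1 block, and its 2 lower genes became 1 without most single libraries (smooth cytokines replicate 3, fractal cytokines replicates 1 to 3, smooth THP-1 replicates 1 to 3 or fractal THP-1 replicate 1).

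Outside these lists, the protein-coding genes with the highest differences were mostly of low or moderate level. TMPRSS2, a transmembrane serine protease, was at 6.20, 3.44 and 8.35 CPM on the smooth and 0.331, 0.551 and 1.14 CPM on the fractal surface under cytokines, and at 4.10, 5.22 and 4.49 and 20.9, 20.6 and 14.6 CPM under THP-1 (difference 5.16 ± 0.48). IQCD was at 54.01, 47.3 and 45.9 and 4.03, 6.18 and 6.08 CPM under cytokines and at 49.6, 55.9 and 58.01 and 124, 141 and 133 CPM under THP-1 (difference 4.46 ± 0.19). It overlaps a gene on the other strand, and the libraries kept no strand. EHF, an epithelial transcription factor of the ETS family, and PDZK1IP1, a small membrane-associated protein, reversed in the same way, with differences of 4.11 ± 0.36 and 3.67 ± 0.24.

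CHRD (chordin), an extracellular antagonist of BMP ligands, was at 29.8, 19.8 and 28.1 CPM on the smooth and 7.54, 6.92 and 9.18 CPM on the fractal surface under cytokines. It was at 49.9, 49.4 and 56.4 and 137, 139 and 225 CPM under THP-1, against control means of 5.46 and 1.23 CPM. Fractal topography thus lowered it in 1 exposure and raised it in the other (difference 3.40 ± 0.28). CSGALNACT1, which starts chondroitin sulfate chains, had a difference of 3.47 ± 0.36, and BDKRB2, the bradykinin B2 receptor, one of 3.26 ± 0.34. In both genes only the THP-1 effect passed. BDKRB2 rose under THP-1 from 7.78, 7.40 and 6.26 to 48.3, 42.2 and 58.5 CPM and was at 9.05, 6.16 and 4.18 and 4.89, 5.82 and 3.23 CPM under cytokines, which overlapped.

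KLRG2 headed the ranking by size but had no count on the fractal surface under cytokines and 11 counts over the 3 smooth libraries. Under THP-1 it was at 3.16, 2.58 and 2.43 CPM on the smooth and 4.35, 4.93 and 7.86 CPM on the fractal surface. It passed (edgeR adjusted p = 0.0385), but no fold is given. Its call was lost in 9 of 23 alternatives (adjusted p = 0.0549 to 0.272). These were limma-voom and, in edgeR, the replicate number as a block and leaving out smooth cytokines replicate 1, fractal cytokines replicates 1, 2 or 3 or smooth THP-1 replicates 1, 2 or 3.

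Genes of the cell cycle formed the clearest group on the lower side. Of 38 mitosis and kinetochore genes, 37 had a lower difference and none a higher one, with a median of -1.84. The exception was PRC1, with a difference of -0.79 ± 0.83 and a wide error. All 38 were lower on the fractal surface under THP-1 (median -1.97), and none passed in either direction under cytokines with edgeR, DESeq2 or limma-voom (median -0.10, 1 with an unadjusted p under 0.05). Of 34 DNA replication and G1/S genes, 24 had a lower difference (median -1.08), 30 were lower under THP-1 (median -1.38) and none passed under cytokines with edgeR (median -0.20). There, 5 had an unadjusted p under 0.05, and DESeq2 called 1. The 37 and 24 were 37 and 27 without the libraries that stood apart.

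The bases upstream of CENPA, ANLN and ASPM are shown because each holds TTTGAA or its reverse complement, in capitals. These letters are the core of the element known as the cell cycle genes homology region. The stretches lie at chr2:26785936-26786055 (plus strand, CENPA), chr7:36389742-36389861 (plus strand, ANLN) and chr1:197146670-197146789 (minus strand, ASPM) in GRCh38.p14, from RefSeq, 5′ to 3′ in the direction of the gene. ANLN has 2 adjoining matches, 1 in each orientation. It belongs to the list of podocyte cytoskeleton and disease genes, not to the mitosis or G1/S lists.
CENPA: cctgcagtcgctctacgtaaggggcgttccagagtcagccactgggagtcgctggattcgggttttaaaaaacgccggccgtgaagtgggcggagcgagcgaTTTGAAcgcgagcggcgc
ANLN: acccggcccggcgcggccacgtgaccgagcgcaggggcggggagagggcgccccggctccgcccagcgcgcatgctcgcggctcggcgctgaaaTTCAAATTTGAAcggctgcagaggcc
ASPM: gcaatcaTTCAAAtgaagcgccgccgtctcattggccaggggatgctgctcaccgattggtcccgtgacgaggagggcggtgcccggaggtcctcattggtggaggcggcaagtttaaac
Within 250 bases upstream, on both strands, these letters were found in 17 of 32 mitosis genes (53.1%) and 1 of 30 G1/S genes (3.33%). They were found in 86 of 488 genes with a lower difference (17.6%), 37 of 424 with a higher one (8.73%) and 965 of 11258 tested genes (8.57%). The share over all RefSeq promoters was 13.6%. So short a motif occurs often without function, and no binding was measured.

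TOP2A, topoisomerase II alpha (ENSG00000131747, chromosome 17, 40388516 to 40417950), was at 170.3, 188 and 184 CPM on the smooth and 202, 157 and 167 CPM on the fractal surface under cytokines, which overlapped. Under THP-1 it was at 206, 165 and 190.1 CPM on the smooth and 53.4, 51.5 and 49.6 CPM on the fractal surface. Only the fractal THP-1 group was low, and its 3 values lay within a narrow range, the library that stood apart included. The difference was -1.82 ± 0.15 (edgeR adjusted p = 3.72e-07). Control means were 373 CPM on the smooth and 346 CPM on the fractal surface, above all 4 exposed groups. TPX2, a spindle assembly factor, and ASPM, a spindle pole protein, gave differences of -1.94 ± 0.16 and -1.75 ± 0.16.

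CENPA, the histone of the centromere, fell under THP-1 from 8.78, 6.54 and 9.23 to 1.37, 2.46 and 0.93 CPM and was at 6.26, 8.001 and 7.97 and 9.72, 7.29 and 8.23 CPM under cytokines (difference -2.50 ± 0.38). CENPM and SKA3, of the kinetochore, had differences of -2.65 ± 0.50 and -2.58 ± 0.38. SGO1 (shugoshin), which protects sister chromatid cohesion, had one of -2.44 ± 0.63. Its call was lost without smooth cytokines replicates 1 or 3, fractal cytokines replicates 1 or 3 or smooth THP-1 replicates 1, 2 or 3 (edgeR adjusted p = 0.0519 to 0.0736). DSCC1, of a clamp loader in replication, and DDIAS stood at -2.38 ± 0.41 and -2.49 ± 0.33.

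For DNA synthesis, RRM2, the regulated subunit of ribonucleotide reductase, was at 45.9, 44.9 and 36.7 CPM on the smooth and 7.22, 8.84 and 4.99 CPM on the fractal surface under THP-1. Under cytokines the values of 33.2, 45.4 and 48.4 and 32.9, 34.8 and 35.2 CPM overlapped (difference -2.28 ± 0.24). E2F1, the transcription factor at the entry to S phase, went from 25.6, 23.3 and 20.04 to 5.55, 5.41 and 4.23 CPM under THP-1 (difference -1.93 ± 0.24), and TK1, thymidine kinase 1, had a difference of -1.87 ± 0.21. MYC, with a difference of -0.97 ± 0.23, also fell on the fractal surface under THP-1. The summed macrophage markers were lower in the same fractal THP-1 libraries. How much of the cell cycle signal came from either cell type was not tested.

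**Figure D3:**
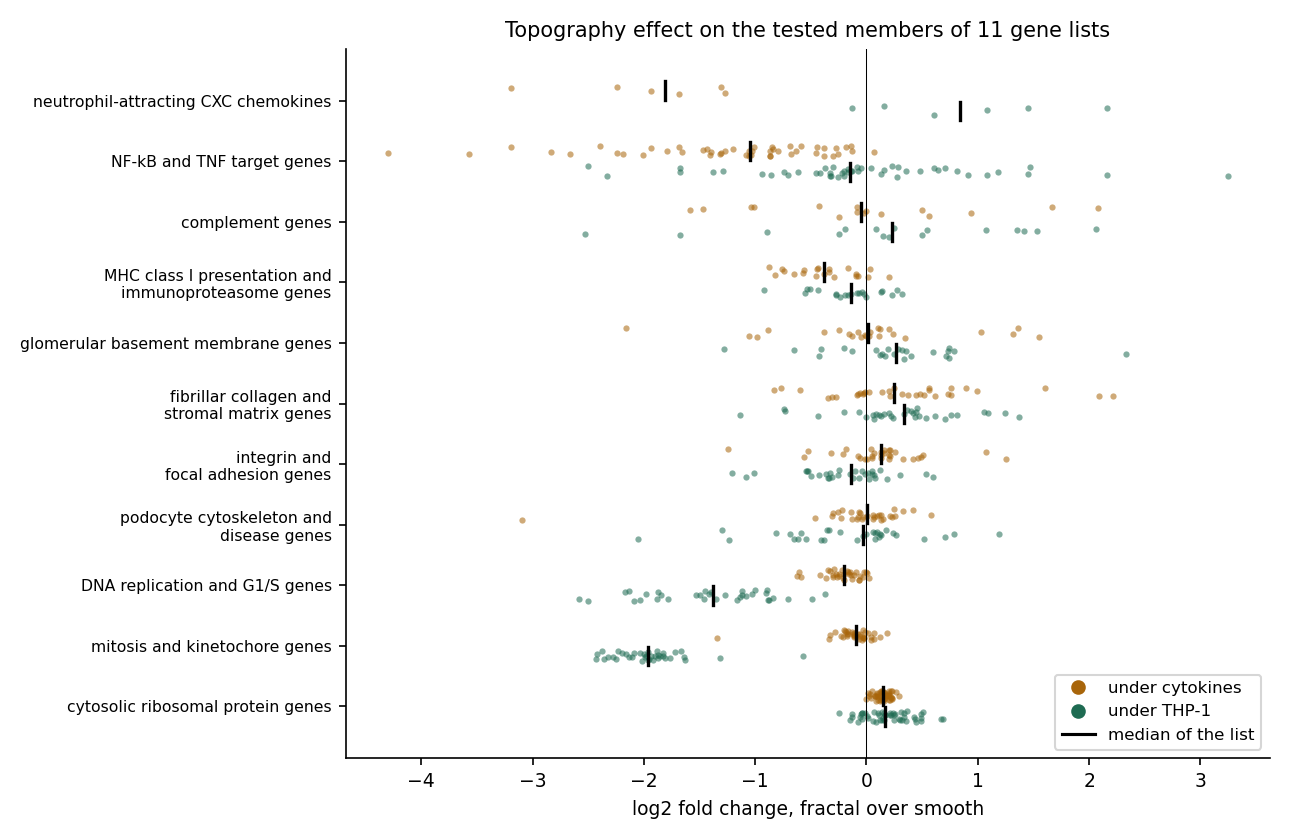
Log2 fold changes of fractal over smooth topography (horizontal) for the tested members of selected gene lists, under cytokines (brown) and under THP-1 (green), 1 point per gene and a black bar at each median. The chemokine medians were -1.81 and 0.84, and the mitosis medians -0.10 and -1.97, while ribosomal protein genes lay near 0 in both.

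Among genes that respond to tension and adhesion, more had a lower than a higher difference, though in small counts. Of 24 YAP and TAZ target genes 2 (8.33%) had a higher and 4 (16.7%) a lower difference (median -0.28). Over all genes the shares were 3.56% and 3.86%. The 4 were 1 to 2 without smooth cytokines replicate 1, fractal cytokines replicate 1 or smooth THP-1 replicate 3, and 8 without fractal THP-1 replicate 3. ANKRD1, a muscle ankyrin repeat protein and a common readout of YAP, had the largest lower difference among the ranked protein-coding genes. It was at 11.9, 11.1 and 11.3 CPM on the smooth and 1.91, 2.58 and 1.10 CPM on the fractal surface under THP-1. Under cytokines it was at 24.7, 35.1 and 20.2 and 48.7, 35.3 and 40.01 CPM, with smooth replicate 2 just under the lowest fractal value. The difference was -3.20 ± 0.32, and control means were 70.5 and 72.2 CPM. CCN2, another YAP target, did not pass (-0.31 ± 0.14, edgeR adjusted p = 0.199). It passed without the libraries that stood apart (edgeR adjusted p = 0.0476) and with limma-voom and quality weights (adjusted p = 0.023). IGFBP3, on the higher side, had a difference of 1.40 ± 0.17.

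Integrin and focal adhesion genes had 1 higher and 8 lower differences among 32 (median -0.32), with 11 lower and none higher under THP-1 and 2 higher and 3 lower under cytokines. The 8 were 5 without fractal cytokines replicates 1 or 2 or smooth THP-1 replicates 1 or 3, and 13 without fractal THP-1 replicate 3. ITGA4 (integrin alpha 4) was at 46.3, 34.8 and 35.8 CPM on the smooth and 20.9, 14.97 and 14.5 CPM on the fractal surface under THP-1. Under cytokines it was at 42.8, 51.3 and 45.4 and 67.8, 60.2 and 58.7 CPM, also apart but short of the threshold (difference -1.63 ± 0.21). ITGA5, the fibronectin receptor chain, passed in opposite directions. It was at 821, 823 and 749 and 1174, 1151 and 1068 CPM under cytokines and at 663, 613 and 607 and 529, 502 and 453 CPM under THP-1 (difference -0.85 ± 0.13). The actin crosslinker FLNC had a difference of -0.99 ± 0.18. ITGA1, a collagen receptor chain, was the higher gene (1.29 ± 0.30), although its 2 sets of fractal minus smooth differences overlapped.

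Podocyte cytoskeleton and disease genes had 3 higher and 7 lower differences among 31 (median -0.16). The 7 were 4 without fractal cytokines replicate 1 or smooth THP-1 replicates 2 or 3. ANLN (anillin), an actin-binding protein needed in cell division as well, fell under THP-1 from 176, 161 and 161 to 40.7, 39.4 and 39.99 CPM (difference -1.79 ± 0.15). ACTN4, the podocyte alpha-actinin, was at 1256, 1134 and 1129 CPM on the smooth and 821, 822 and 653 CPM on the fractal surface under THP-1. Under cytokines it was at 734, 737 and 911 and 989.8, 947 and 852 CPM, overlapping (difference -0.84 ± 0.16). DLC1, which acts on the actin skeleton, passed in opposite directions (difference -1.27 ± 0.16). PLA2R1, the phospholipase A2 receptor that is the autoantigen of membranous nephropathy, rose under THP-1 from 26.5, 34.8 and 33.4 to 52.6, 61.5 and 49.2 CPM (difference 1.26 ± 0.20).

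SYNPO (synaptopodin), which organises actin in foot processes, gave no difference to the second decimal, 0.00 ± 0.17. It was at 105 ± 14.3 and 114 ± 8.93 CPM under cytokines and at 61.2 ± 5.33 and 66.3 ± 10.5 CPM under THP-1 (SD, n = 3). PODXL (podocalyxin), the main sialoprotein of the podocyte surface, was low. It was at 5.35, 7.41 and 9.11 and 7.87, 5.69 and 7.34 CPM under cytokines and at 5.21, 6.37 and 6.92 and 3.40, 2.40 and 1.94 CPM under THP-1. Its difference of -1.17 ± 0.36 missed the threshold (edgeR adjusted p = 0.0594). It passed in 7 of 23 alternatives (adjusted p = 0.0109 to 0.0492), which were edgeR without smooth cytokines replicate 3 or fractal THP-1 replicates 1 or 3, with all 18 libraries or with no filter, DESeq2, and limma-voom with quality weights.

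Matrix genes of the stroma had 3 higher and 7 lower differences among 33 (median 0.14), so median and counts point different ways. The 7 were 4 without fractal cytokines replicates 1 or 2 or smooth THP-1 replicate 1, and the 3 were 6 without smooth cytokines replicate 2. COL6A3, a chain of collagen VI, passed in opposite directions. It was at 415, 389 and 349 CPM on the smooth and 754, 694 and 689.6 CPM on the fractal surface under cytokines, and at 223, 192 and 192 and 114, 105 and 145 CPM under THP-1 (difference -1.63 ± 0.16). THBS1 (thrombospondin 1), an activator of latent TGF-beta, fell under THP-1 from 564, 514 and 494 to 247, 236 and 231 CPM. Its cytokine values of 405, 413 and 751 and 786, 697 and 702 CPM overlapped through smooth replicate 3 (difference -1.62 ± 0.25). DCN (decorin), a small proteoglycan that binds TGF-beta, moved the other way, from 244, 167 and 261 to 131, 130.4 and 116 CPM under cytokines and from 15.5, 15.2 and 10.7 to 35.3, 31.9 and 40.3 CPM under THP-1 (difference 2.21 ± 0.22). FN1 (fibronectin), the most abundant gene described here, was at 139527, 94094 and 133355 CPM on the smooth and 121570.0, 120289 and 120854 CPM on the fractal surface under cytokines. It was at 140614, 116319 and 122905 and 188918, 177797 and 140322 CPM under THP-1. Its difference of 0.43 ± 0.20 did not pass (edgeR adjusted p = 0.242). It passed in 4 of 23 alternatives (adjusted p = 1.59e-06 to 0.0354), which were edgeR without smooth cytokines replicate 2, without both libraries that stood apart or with no filter, and limma-voom with quality weights. Without both libraries the difference was 0.72 (edgeR adjusted p = 1.59e-06).

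Genes of the glomerular basement membrane had 6 higher and 2 lower differences among 24 (median 0.33), and 11 higher and 3 lower without both libraries that stood apart. The 2 lower ones were 0 or 1 without smooth cytokines replicates 2 or 3, fractal cytokines replicates 1 or 2, smooth THP-1 replicates 1, 2 or 3 or fractal THP-1 replicate 2. LAMA3 and LAMB3, chains of epithelial laminin, had higher differences. LAMA3 was at 41.6, 29.2 and 30.96 CPM on the smooth and 20.6, 18.1 and 16.4 CPM on the fractal surface under cytokines, and at 148, 139 and 154 and 249, 247 and 265 CPM under THP-1 (difference 1.67 ± 0.17). LAMB3 fell under cytokines from 119, 110.2 and 109 to 58.4, 54.2 and 49.5 CPM, with an effect of 0.08 ± 0.13 under THP-1 (difference 1.14 ± 0.18). COL4A4, a chain of the mature basement membrane collagen, was the more strongly lower of the 2 lower genes, at 1.22, 3.20 and 2.87 and 6.88, 5.57 and 5.82 CPM under cytokines and 6.55, 7.51 and 7.05 and 6.80, 4.81 and 6.76 CPM under THP-1 (difference -1.52 ± 0.39). Its call was lost without fractal cytokines replicate 1 (edgeR adjusted p = 0.0666) or smooth THP-1 replicates 2 (0.0626) or 3 (0.0517).

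**Figure D4:**
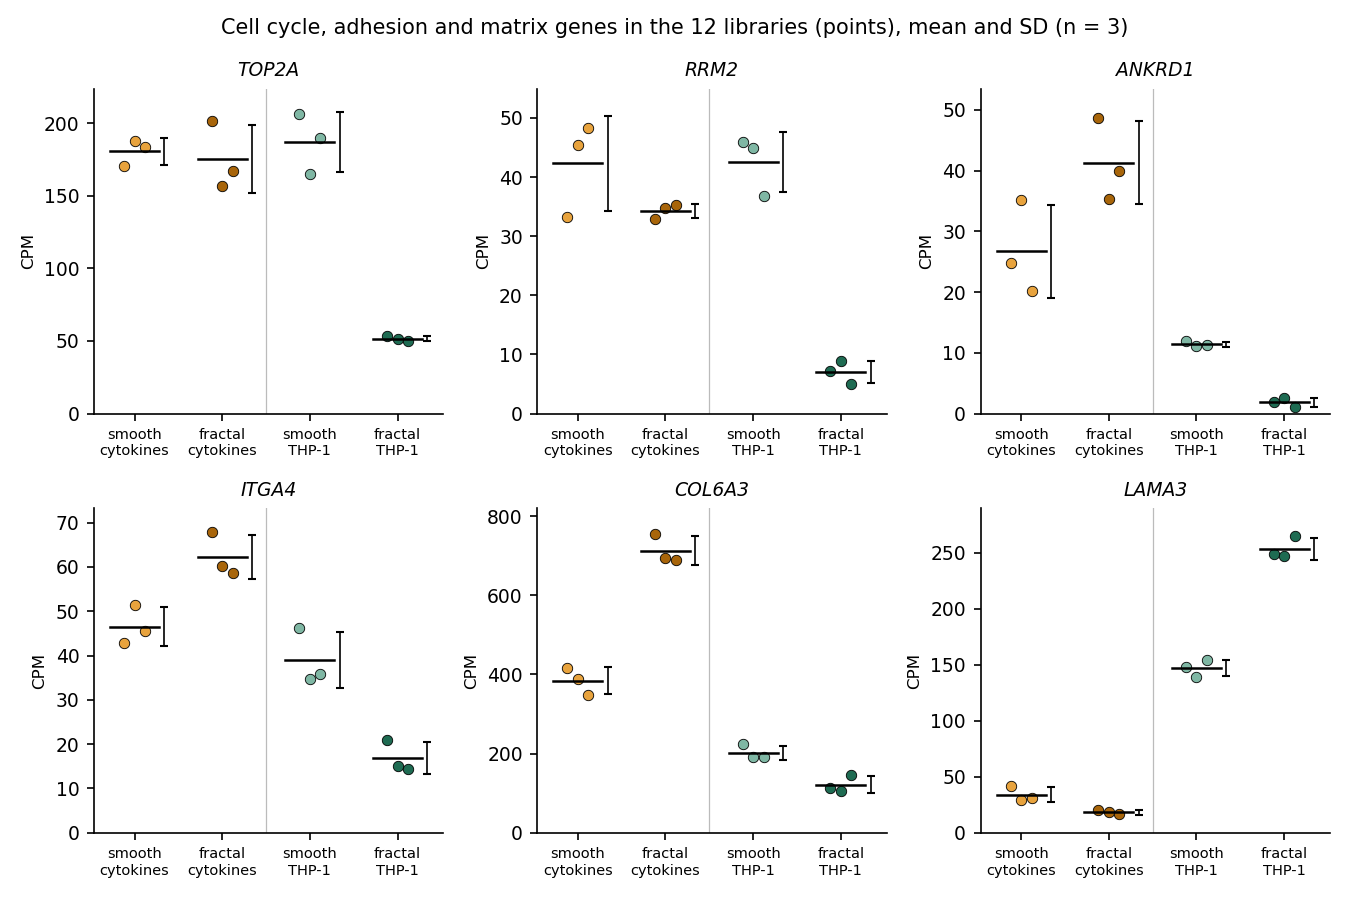
CPM (vertical, from 0) of 6 genes of the cell cycle, adhesion and matrix in the 12 libraries, with bars for the mean and error bars for the SD of 3 libraries. TOP2A and RRM2 are low in the fractal THP-1 group alone, COL6A3 is higher on the fractal surface under cytokines and lower under THP-1, and LAMA3 shows the reverse.

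Targets and ligands of TGF-beta and BMP gave small counts. Of 32 TGF-beta targets 1 had a higher and 6 a lower difference (median 0.00), and 10 were lower without fractal THP-1 replicate 3. Of 25 BMP ligands, antagonists and ID genes 2 (8.0%) were higher and 4 (16.0%) lower (median 0.02), beside 3.56% and 3.86% over all genes. Without smooth cytokines replicate 2, 6 were higher, and without fractal THP-1 replicate 3, 4 were. GDF6, a BMP ligand, was at 10.3, 16.1 and 15.5 CPM on the smooth and 34.7, 33.1 and 32.1 CPM on the fractal surface under cytokines and at 12.5, 9.98 and 10.4 and 7.46, 7.63 and 6.93 CPM under THP-1, opposite in direction to the antagonist CHRD (difference -1.83 ± 0.24). NOG (noggin), another antagonist, had a difference of 1.84 ± 0.38, which limma-voom did not call (adjusted p = 0.0612). ID1, a BMP response gene, fell under THP-1 from 34.5, 32.1 and 36.8 to 17.7, 21.1 and 25.96 CPM. Under cytokines it had 83.8, 98.7 and 97.2 and 121, 119.8 and 119 CPM, apart but not past the threshold (difference -1.05 ± 0.17). LTBP1, which anchors latent TGF-beta in the matrix, rose under cytokines from 202, 207 and 132 to 352, 345 and 329 CPM, with an effect of -0.06 ± 0.14 under THP-1 (difference -0.98 ± 0.20).

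Immediate early and AP-1 genes had 2 higher (6.45%) and 4 lower (12.9%) differences among 31 (median -0.11), beside 3.56% and 3.86% over all genes. The 4 were 2 without smooth cytokines replicate 1, fractal cytokines replicate 1 or smooth THP-1 replicate 3. FOSL1, an AP-1 subunit, fell under THP-1 from 94.98, 80.6 and 83.6 to 32.6, 33.3 and 19.4 CPM (difference -1.38 ± 0.28), whereas the nuclear receptor NR4A2 rose from 2.75, 2.35 and 2.73 to 8.95, 9.32 and 9.89 CPM (difference 2.58 ± 0.46). Among metalloproteinases and their inhibitors, 4 of 20 were higher and 1 lower (median -0.12), and 2 were higher without smooth cytokines replicate 3. The aggrecanase ADAMTS5 was at 293, 188 and 319 and 153, 149.5 and 166 CPM under cytokines and at 289, 255 and 249.8 and 563, 559 and 422 CPM under THP-1, a reversal without overlap (difference 1.73 ± 0.22).

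Among the remaining genes with the strongest lower differences, CPA4, a secreted carboxypeptidase, passed in opposite directions. It was at 16.8, 26.97 and 22.8 and 55.1, 34.6 and 39.3 CPM under cytokines and at 7.84, 6.48 and 8.93 and 1.31, 1.86 and 3.04 CPM under THP-1 (difference -2.90 ± 0.36). MAP2, a microtubule-associated protein, rose on the fractal surface under cytokines from 10.996, 10.5 and 7.43 to 26.9, 23.8 and 31.7 CPM. It fell under THP-1 from 88.1, 79.1 and 82.3 to 51.4, 51.7 and 30.02 CPM (difference -2.41 ± 0.26). The cadherin CDH8 was near 1 CPM or less under cytokines and fell under THP-1 from 14.3, 13.4 and 12.3 to 4.29, 5.89 and 5.07 CPM (difference -2.41 ± 0.47). NRGN (neurogranin), which binds calmodulin, fell under THP-1 from 11.5, 11.4 and 9.66 to 1.49, 2.04 and 2.96 CPM (difference -2.36 ± 0.35). KCNN4, a calcium-activated potassium channel, had a difference of -2.40 ± 0.62. Its call was lost without fractal cytokines replicates 1 or 2 or smooth THP-1 replicates 2 or 3 (edgeR adjusted p = 0.0548 to 0.0675).

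Of 33 hypoxia and glycolysis genes 13 were higher on the fractal surface under THP-1, but only 3 had a higher and 1 a lower difference (median 0.05). The lower one was ENO1 (enolase 1), at 2172, 2224 and 2287 and 2459.5, 2670.4 and 2361 CPM under cytokines and 2366, 2211 and 2279 and 1633, 1616 and 1464 CPM under THP-1 (difference -0.71 ± 0.13). Of 29 NRF2 and antioxidant genes 4 (13.8%) were higher and 3 (10.3%) lower (median 0.02), beside 3.56% and 3.86% over all genes. The 4 were 2 without fractal cytokines replicate 3 or smooth THP-1 replicates 1 or 2, and the 3 were 5 without fractal THP-1 replicate 3. AKR1B1 (aldose reductase) was at 334, 314 and 426 and 123, 110.3 and 124 CPM under cytokines and at 373, 371 and 389 and 414, 416 and 475 CPM under THP-1, so that only the cytokine effect passed (difference 1.79 ± 0.16). Lysosome genes had 6 higher and no lower differences among 29 (median 0.12). The 6 were 2 or 3 without smooth cytokines replicate 1, fractal cytokines replicates 1 or 3 or smooth THP-1 replicates 1, 2 or 3. CTSF (cathepsin F) rose under THP-1 from 11.3, 14.2 and 12.9 to 33.999, 30.4 and 48.1 CPM (difference 1.47 ± 0.23).

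Few genes were called in the other lists, beside 3.56% higher and 3.86% lower over all genes. Cholesterol and fatty acid synthesis gave 2 higher and 1 lower of 31 (median 0.19), with 4 higher without smooth cytokines replicate 2 or fractal THP-1 replicate 3. The unfolded protein response gave 1 and 0 of 31 (median -0.05), heat shock proteins 2 and 0 of 20 (median -0.17), and p53 targets 1 and 1 of 28 (median 0.04). No gene passed for the difference among 6 metallothioneins (median 0.16), 13 mitochondrially encoded genes (0.02), 35 nuclear oxidative phosphorylation genes (-0.06) or 50 cytosolic ribosomal protein genes (0.04), with edgeR, DESeq2 or limma-voom. In edgeR 1, 0, 1 and 3 of them had an unadjusted p under 0.05. Of markers of other cells, 1 of 7 podocyte markers was higher (PLA2R1), 1 of 6 endothelial markers was higher, none of 7 mesangial markers passed with edgeR (1 with an unadjusted p under 0.05, 1 called by DESeq2 and 1 by limma-voom) and 1 of 8 tubular or parietal markers was lower.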

How the data were processed

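Per the labels' protocols, poly-A RNA from a PicoPure extraction was made into libraries without strand information and sequenced with paired 150-base reads. GRCh38, featureCounts 1.5.0-p3, HISAT2 2.0.5 and CASAVA appear in the submitters' processing notes, with no role given. The authors deposited raw counts per Ensembl gene for 58735 genes, with no normalization. Positions came from GENCODE 29, and current symbols were found for 41937 genes.

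The 12 libraries were scaled by TMM and filtered with filterByExpr (minimum count 10, total 15), and 15788 genes were tested in edgeR 4.0.16 (R 4.3.3). A mean per group was fitted, leaving 8 residual degrees of freedom, and contrasts were tested with robust quasi-likelihood F-tests. That test reports no SE. The SE given with a log2 value is the size of that value divided by the square root of its F statistic. P-values were adjusted over all genes by the Benjamini-Hochberg method. The biological coefficient of variation was 14.8%. Controls were kept out, since their replicates spread less. Control means use scaling over all 18 libraries, and marker sums and means use unscaled CPM. The procedure was also run on simulated counts, in which no library stood apart and no group carried added macrophage RNA. That run therefore does not bear on those features of the data.

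Named were up to 12 protein-coding genes per direction by size of the difference, with at least 5 CPM in the highest group and no overlap of the 9 against 9 differences, up to 3 per list and direction by adjusted p, and fixed genes. Some list members past these limits or with unstable calls are left out, and a few other genes are not reported here. The members and lists were chosen with earlier results of these data known. Alternatives used DESeq2 1.42.0, limma 3.58.1 (voom, with and without quality weights), RLE and upper-quartile scaling, other filters, all 18 libraries, no mitochondrially encoded genes, a replicate block, and fewer libraries. Upstream sequences are RefSeq's. Of the 132 genes the rule names, 55 share bases with an antisense gene (IL6, ICAM1 and SOD2 included), and their reads cannot be told apart by strand.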

Additional observations from a re-analysis of the deposited data

Results flagged for a closer look

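The topography effect itself differed between the exposures, by the test of the difference, in 1172 genes, of which 108 passed in both exposures with opposite signs. Among the genes named by size of the difference, 11 were of this kind. The log2 differences on the higher side were 5.35 for CXCL6, 5.16 for TMPRSS2, 4.46 for IQCD, 4.40 for SAA1, 4.23 for SAA2, 4.11 for EHF, 3.67 for PDZK1IP1, 3.40 for CHRD and 3.25 for PTGES. On the lower side they were -2.90 for CPA4 and -2.41 for MAP2. In each of these 11 genes the smooth and fractal values did not overlap within either exposure. The genes were picked by tests and by non-overlap on these same values, so that is no separate support for them. No group had the 4 libraries needed to test for a single deviating value.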

How the results depend on the processing

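Of 92 named genes, 87 passed and 81 of them did so in all 23 alternatives, and none reversed. The naming rule gave 132 genes, and some list members with unstable calls were left out of the 92. The share of stable calls therefore does not measure how stable calls are in general. Genes called for the difference numbered 807 to 2044 when single libraries were left out (377 to 919 higher, 423 to 1125 lower), 1337 to 3058 for the THP-1 effect and 275 to 980 for the cytokine effect. Integrin genes with a lower difference numbered 5 to 13. With all 18 libraries 1847 genes were called (1034 lower), and 719 for the cytokine effect. With limma-voom and quality weights, which gave fractal THP-1 replicate 3 a weight of 0.129, the counts were 2727 (1233 higher, 1494 lower), 4878 under THP-1, 877 under cytokines and 13 integrin genes. Without both libraries that stood apart they were 2451 (1179 higher, 1272 lower), 3478 and 1164. Each gene's spread was estimated over all libraries in a fit, so leaving out a library also affects the test of an effect it is not part of. The cause of these shifts was not tested.

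Same-numbered libraries of different groups did not deviate together: 18 correlations ran from -0.0747 to 0.072, and 1 of 12 libraries correlated best with its own number. With the replicate number as a block, 1067 genes were called, 1038 of them shared. Depth limits genes near 0, such as KLRG2 and FGB.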
